A study of Drosophila melanogaster with 8 samples.

Results

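The translation initiation and elongation factors were taken as every gene whose FlyBase symbol begins with eIF or eEF, and 52 of the 17473 genes in the deposited tables met this rule. Their RNA levels were followed across 4 Drosophila melanogaster strains, each with 2 libraries made from total RNA of whole larvae given as L3 wandering stage. The strains were the w1118 wild type (WT) and homozygotes for a deletion of Smn (labelled Smn-delta/delta and written SmnΔ/Δ), of the U12 snRNA gene (U12Δ/Δ) or of the U6atac snRNA gene (U6atacΔ/Δ). The deletion strains were made with CRISPR/Cas9 and back-crossed to the wild type, and the homozygous larvae were told from their balanced siblings by a GFP balancer. SMN assembles the snRNPs of both spliceosomes, whereas U12 and U6atac belong to the minor spliceosome alone. The sex of the larvae is not given in the sources used here. Values are transcripts per 1e+06 transcripts (TPM), which are scaled to gene length and to the library total, so that levels of different genes can be set side by side.

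Initiation factors bring the small ribosomal subunit to the cap of an mRNA and to its start codon. eIF4E binds the cap, eIF4G links it to the helicase eIF4A and to the eIF3 scaffold, eIF2 delivers the initiator tRNA as a GTP complex that eIF2B renews, and eIF1, eIF1A and eIF5 control start codon choice. The elongation factors eEF1 and eEF2 then bring aminoacyl-tRNA to the ribosome and move it along the mRNA. Drosophila carries several gene copies of some factors, above all of eIF4E, and eIF4E3 and eIF4G2 are known for their role in spermatogenesis.

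All 52 genes had a TPM above 0 in each of the 8 libraries, and all 52 lay at the same dm6 position in the tables and in the Ensembl annotation. They lay on chromosome arms 2L (5 genes), 2R (13), 3L (11) and 3R (15), on chromosome X (7 genes) and on chromosome 4 (1 gene). 26 of them overlapped another annotated gene, 10 on the same strand and 20 on the opposite strand, so reads there could not be assigned to 1 gene with certainty. Those with an overlap on the opposite strand include eIF1A, eIF2A, eIF2alpha, eIF2beta, every eIF2B subunit, eIF3e, eIF3h and eEF5. The fly gene for eIF4AIII was listed as CG7483 and therefore was not a member.

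Mean TPM over the 8 libraries ran from 0.350 for eIF4E6 to 14269 for eEF1alpha1, with a median of 76.9 over the 52 genes. 4 genes had a mean of at least 1000 TPM (eEF1alpha1, eEF2, eIF4A and eEF5), 22 had a mean of at least 100, and 10 had a mean below 10. By role, the median of the mean TPM was 618 for 8 elongation factors, 143 for 16 eIF3 genes, 114 for 6 start codon and subunit joining factors, 75.6 for 4 genes of the ternary complex group, 18.8 for 5 eIF2B subunits and 16.3 for 13 cap-binding factors and partners. The ternary complex group held eIF2alpha, eIF2beta and eIF2gamma, and also eIF2D, which is not an eIF2 subunit. The members together held 2.03 and 2.32% of the TPM in WT, 2.02 and 5.61% in SmnΔ/Δ, 2.17 and 2.04% in U12Δ/Δ, and 3.46 and 1.5% in U6atacΔ/Δ. Without eEF1alpha1 the members held 9410.0 to 18773 TPM per library.

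**Figure D1:**
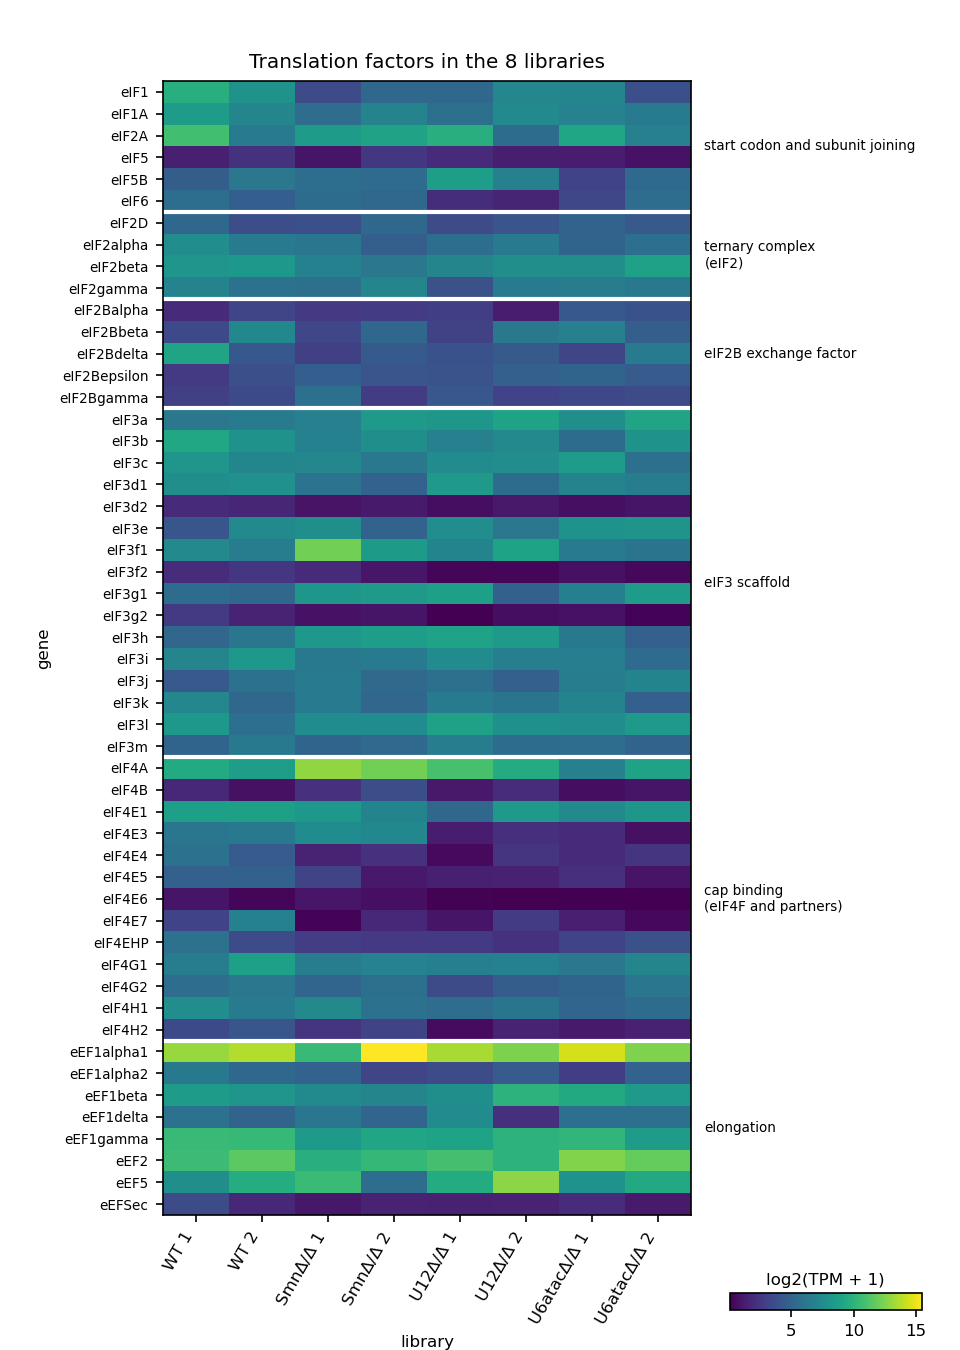
Heat map of log2(TPM + 1) for the 52 translation factors (rows, grouped by role) in the 8 libraries (columns, 2 per strain). Elongation factors and eIF4A are the brightest rows, and the rows from eIF4E3 to eIF4E7 are darker in the U12Δ/Δ and U6atacΔ/Δ columns than in WT.

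Replicate libraries of a strain were far apart for many of these genes. Between the 2 libraries of a strain, 29 of the 51 members with a mean of at least 1 TPM differed by over 2-fold in WT, 24 in SmnΔ/Δ, 23 in U12Δ/Δ and 24 in U6atacΔ/Δ, beside 50.3, 49.9, 49.3 and 44.0% of all 11122 genes that passed the same filter. Across the 8 libraries the highest value of a member was 3.08 (eIF3m) to 1004 (eIF4E7) times its lowest, with a median of 13.0, and this ratio was over 10 for 30 genes. The log2 difference between the replicates of a member correlated, across the 51 genes, with the mean difference of the 10 genes listed around it in the table (Pearson's r = 0.55 in WT, 0.43 in SmnΔ/Δ, 0.52 in U12Δ/Δ and 0.16 in U6atacΔ/Δ). This is a description across genes, which are not independent replicates and share their libraries.

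Some markers stood apart between strains. The 6 late larval fat body markers summed to 0.507 to 3.89 TPM in SmnΔ/Δ and to 28353 to 116163 TPM in the other 3 strains. The 6 salivary glue genes summed to 0.872 to 1.06 TPM in SmnΔ/Δ and to 16212 and 8048 in WT. They summed to 211173 and 18.3 TPM in U12Δ/Δ and to 643 and 2220 in U6atacΔ/Δ. These genes are switched on late in larval life, and their levels in SmnΔ/Δ did not match those of the other libraries given the same stage label. The paper's own staging by transcriptome grouped the U12Δ/Δ and U6atacΔ/Δ strains with WT larvae and gave the stage of SmnΔ/Δ separately. A difference in stage and the Smn deletion therefore cannot be told apart in any value of SmnΔ/Δ given here, also where SmnΔ/Δ is the reference. Glue levels also differed among the WT and snRNA deletion libraries. 5 of the 6 glue genes lay below both WT libraries in U6atacΔ/Δ (33% of all genes tested) and 1 in U12Δ/Δ (31.2%). Whether these libraries differed in stage was not tested. The 5 body wall muscle markers summed to 6916 and 15305 TPM in WT and to 9257 to 23554 in the deletion libraries. The 5 neuron markers summed to 210 to 249 TPM in WT, 53.1 to 242 in SmnΔ/Δ, 132 to 191 in U12Δ/Δ and 314 to 439 in U6atacΔ/Δ. No marker of these 2 tissues had a limma adjusted p under 0.05 against WT. Smn had 24.7 and 28.3 TPM in WT, 4.57 and 0.653 in SmnΔ/Δ, 9.76 and 200.3 in U12Δ/Δ, and 14.0 and 9.57 in U6atacΔ/Δ. The U12 snRNA gene was at 0 in both U12Δ/Δ libraries and at 0.0724 to 1.33 TPM in the others. With 0.0724 and 0.454 TPM in WT it was near the floor, so it is a weak check of the genotype. The U6atac snRNA gene was at 0 in all 8, so that it checked nothing.

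Each deletion strain was compared with WT, which asks how the factors stand when both spliceosomes or the minor spliceosome alone are impaired. The test was limma on log2(TPM + 1) over all 8 libraries, two-sided, with Benjamini-Hochberg adjustment over 11122 genes, and fold changes are on this scale, which understates those of low genes. 51 of the 52 members were tested, since eIF4E6 had a mean below 1 TPM. No member had an adjusted p under 0.05 in any of the 3 comparisons, beside 1.51% of all genes tested for SmnΔ/Δ, 0% for U12Δ/Δ and 0% for U6atacΔ/Δ. Without adjustment, 7 members passed 0.05 for SmnΔ/Δ, 3 higher (beside 7.02% of all genes) and 4 lower (6.89%). For U12Δ/Δ 10 passed, 1 higher (1.79%) and 9 lower (7.65%), and for U6atacΔ/Δ 8 passed, all lower (8.15%). The lower members of both strains include eIF3f2 and eIF3g2, which reached the tested set only through their WT values. The 3 comparisons share the WT libraries. With 2 libraries per strain, the p-values set a difference of group means against the spread between libraries, each of which pooled RNA of several larvae. An exact permutation test of 2 against 2 could not go below 0.333.

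The median log2 fold change of the 51 members was −0.54 in SmnΔ/Δ, −0.80 in U12Δ/Δ and −0.70 in U6atacΔ/Δ, beside −0.18, −0.53 and −0.49 for all genes tested. Median-ratio scaling brought the medians of all genes to −0.03, −0.01 and 0.01, and those of the members to −0.35, −0.13 and −0.16. In bulk RNA, fewer cells of a type and less RNA per cell cannot be told apart.

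Counts of members whose 2 libraries lay beyond both WT libraries describe the same values without a model. In SmnΔ/Δ, 21 of 51 members lay below both WT libraries (background 25.6%) and 8 above (20.4%). In U12Δ/Δ, 20 lay below (31.2%) and 5 above (10.4%), and in U6atacΔ/Δ, 20 lay below (33%) and 7 above (11.9%). 15 members lay below both WT libraries in all 4 snRNA deletion libraries (18.1% of all genes tested) and 2 above (4.26%). In all 6 deletion libraries, 13 members (25.5%) lay below both WT libraries, where 9.78% of all genes tested did. They were eEF1alpha2, eEF1gamma, eIF1, eIF2alpha, eIF3b, eIF3d2, eIF3f2, eIF3g2, eIF4E1, eIF4E4, eIF4E5, eIF4E7 and eIF4H2. Among them, eIF3d2, eIF3f2 and eIF3g2 (means of 1.25, 1.57 and 1.25 TPM) passed the filter of 1 TPM only through WT (2.50, 3.68 and 3.53 TPM). The filter itself thus favoured their place below WT in these counts. eIF2Bepsilon and eIF3a (3.92% of the members) lay above both WT libraries in all 6, beside 2.87% of all genes tested. No test was made of these counts.

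**Figure D2:**
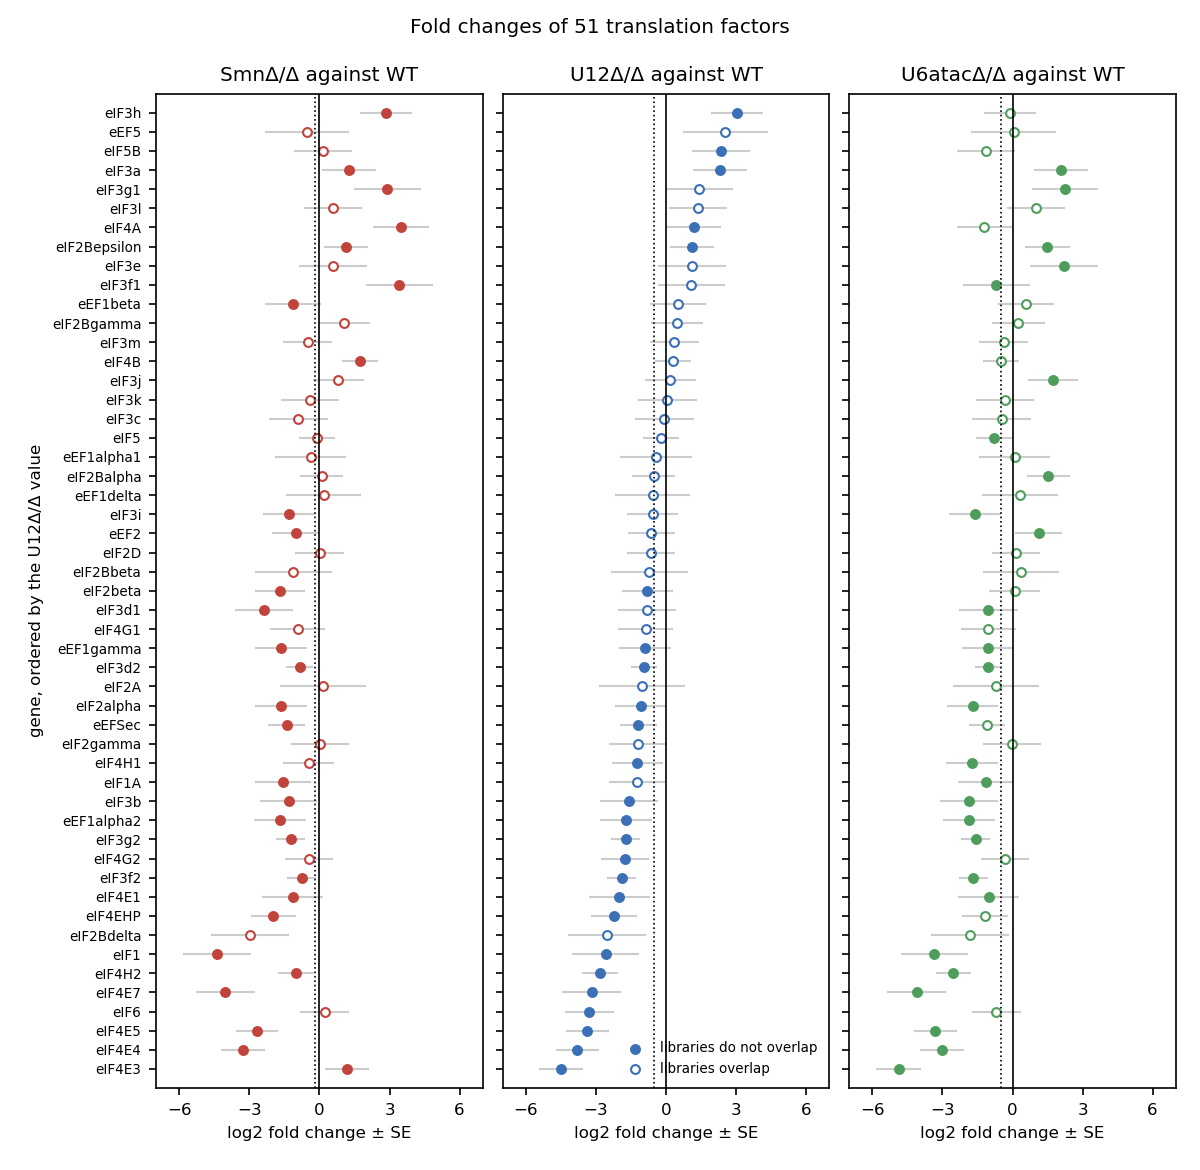
Log2 fold change ± SE against WT (x axis) for the 51 tested translation factors (y axis, ordered by the U12Δ/Δ value) in SmnΔ/Δ, U12Δ/Δ and U6atacΔ/Δ, on the log2(TPM + 1) scale. Filled points have both libraries beyond both WT libraries and the dotted line is the median of all genes tested. The lowest values in U12Δ/Δ and U6atacΔ/Δ are those of eIF4E3 (−4.49 and −4.88), which lies above 0 in SmnΔ/Δ (1.17).

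The cap-binding proteins held the largest log2 fold changes against WT in U12Δ/Δ and U6atacΔ/Δ. eIF4E3 (FBgn0265089, chromosome arm 3L, 8229224 to 8230568, plus strand, overlapping no other annotated gene) had 67.9 and 77.4 TPM in WT, 182 and 149 in SmnΔ/Δ, 1.38 and 3.50 in U12Δ/Δ, and 2.81 and 0.640 in U6atacΔ/Δ. All 4 snRNA deletion libraries lay below both WT libraries, and both SmnΔ/Δ libraries lay above them. The group means were 72.6 ± 6.76 TPM in WT, 165 ± 23.5 in SmnΔ/Δ, 2.44 ± 1.5 in U12Δ/Δ and 1.73 ± 1.54 in U6atacΔ/Δ (SD, n = 2 each), so that the WT mean was 29.8 times that of U12Δ/Δ and 42.1 times that of U6atacΔ/Δ.

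Against WT, the log2 fold change of eIF4E3 was −4.49 ± 0.95 (SE) in U12Δ/Δ (limma adjusted p = 0.387) and −4.88 ± 0.95 in U6atacΔ/Δ (limma adjusted p = 0.365), and neither passed the adjusted threshold. In SmnΔ/Δ it was 1.17 ± 0.95 (limma adjusted p = 0.621). The snRNA deletion strains were also compared with SmnΔ/Δ to set loss of the minor spliceosome snRNAs beside loss of Smn. In both comparisons the strain cannot be told apart from the stage, since the fat body and glue markers were nearly absent in SmnΔ/Δ. There eIF4E3 was lower in U12Δ/Δ by −5.66 ± 0.95 (limma adjusted p = 0.0235) and in U6atacΔ/Δ by −6.05 ± 0.95 (limma adjusted p = 0.0175). It was the 1 member called in each of these comparisons, in which 1.13% and 1.12% of all genes were called lower, and both share the SmnΔ/Δ libraries. Fitted on the 4 libraries compared alone, neither difference passed (limma adjusted p = 0.212 and 0.158). In U12Δ/Δ the call was lost whichever of the 8 libraries was left out (adjusted p = 0.0509 to 0.162). In U6atacΔ/Δ it was lost without SmnΔ/Δ replicate 1 (adjusted p = 0.0642), U6atacΔ/Δ replicate 1 (0.0790) or U6atacΔ/Δ replicate 2 (0.174), and held without any other 1 library.

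Without adjustment, 3 members were lower in U12Δ/Δ than in SmnΔ/Δ at a p under 0.05 (eIF4E3, eIF6 and eIF4H2, beside 8.16% of all genes tested) and 5 in U6atacΔ/Δ (eIF4E3, eIF4A, eIF3f1, eIF3h and eIF4B, beside 8.61%). No member was higher, but few genes were. Of the 11122 genes tested, 1218 passed for U12Δ/Δ in either direction, 908 of them lower. For U6atacΔ/Δ 1292 passed, 958 of them lower. The 2 U12Δ/Δ libraries lay below both SmnΔ/Δ libraries for 8 members (background 29.5%) and above for 8 (12.9%), and those of U6atacΔ/Δ below for 9 (30.3%) and above for 9 (14.6%). The median log2 fold change of the members against SmnΔ/Δ was −0.05 in U12Δ/Δ and 0.12 in U6atacΔ/Δ, beside −0.36 and −0.34 for all genes tested.

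Within the eIF4E family, the gene for the canonical cap-binding protein, eIF4E1, had 431 and 454 TPM in WT, 310.0 and 128 in SmnΔ/Δ, 37.0 and 319 in U12Δ/Δ, and 161 and 293 in U6atacΔ/Δ. All 6 deletion libraries lay below WT, at log2 fold changes of −1.14, −2.01 and −1.02 with limma adjusted p between 0.627 and 0.825. eIF4E1 made up 73.1 and 65.5% of the summed TPM of the 6 numbered eIF4E genes (eIF4EHP left out) in WT and 61.7 and 45.1% in SmnΔ/Δ. In U12Δ/Δ it made up 89.6 and 95.6% and in U6atacΔ/Δ 93.8 and 98.0%. The share of eIF4E3 was 11.5 and 11.2% in WT, 36.2 and 52.3% in SmnΔ/Δ, 3.34 and 1.05% in U12Δ/Δ, and 1.64 and 0.214% in U6atacΔ/Δ. These shares add up to a whole, so a lower share of 1 gene raises the others.

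eIF4E4, eIF4E5 and eIF4E7, which encode further cap-binding proteins, lay below both WT libraries in all 6 deletion libraries. eIF4E4 (3L, 6664224 to 6665641, minus strand) had 55.9 and 21.5 TPM in WT and 1.94 and 3.59 in SmnΔ/Δ. It had 0.309 and 4.07 TPM in U12Δ/Δ and 2.80 and 4.12 in U6atacΔ/Δ. No deletion library overlapped WT, and the log2 fold changes were −3.28, −3.80 and −3.02 (limma adjusted p = 0.164, 0.412 and 0.384).

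eIF4E5 (3L, 7894880 to 7896009, plus strand) had 26.3 and 27.3 TPM in WT, 8.01 and 1.11 in SmnΔ/Δ, 1.64 and 1.73 in U12Δ/Δ, and 3.39 and 0.802 in U6atacΔ/Δ. Here too the groups did not overlap, at log2 fold changes of −2.67, −3.37 and −3.31 (limma adjusted p = 0.245, 0.413 and 0.380). eIF4E7 on chromosome X had 7.75 and 112 TPM in WT, where its replicates were far apart, and 0.112 to 5.50 TPM in the 6 deletion libraries. Its log2 fold changes were −4.03, −3.18 and −4.11 (limma adjusted p = 0.20, 0.501 and 0.384).

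eIF4E6 lay below the filter, with 0.885 and 0.18 TPM in WT, 0.907 and 0.594 in SmnΔ/Δ, and 0.0176 to 0.104 in the 4 snRNA deletion libraries. eIF4EHP, a cap-binding protein that represses translation of the mRNAs it holds, had 54.7 and 11.1 TPM in WT, 6.22 and 5.06 in SmnΔ/Δ, 5.36 and 3.85 in U12Δ/Δ, and 7.86 and 13.7 in U6atacΔ/Δ. It shares its strand with Syx1A, so its level is uncertain.

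**Figure D3:**
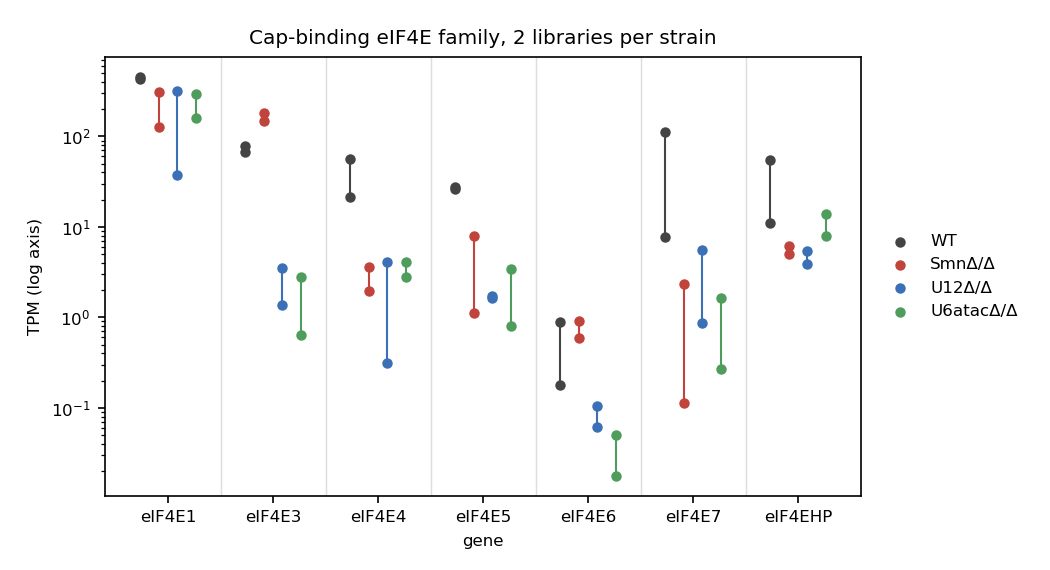
TPM on a log axis for the 6 numbered eIF4E genes and eIF4EHP, with 1 point per library and a line joining the 2 libraries of a strain. eIF4E3 separates the strains most widely: 67.9 and 77.4 TPM in WT, 182 and 149 in SmnΔ/Δ, and 0.640 to 3.50 in the 4 snRNA deletion libraries.

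Paralogues are genes that duplicate a broadly expressed initiation factor, and several besides the eIF4E genes had their lowest levels in the snRNA deletion strains. The 10 paralogues (eIF4E3, eIF4E4, eIF4E5, eIF4E6, eIF4E7, eIF4G2, eIF4H2, eIF3d2, eIF3f2 and eIF3g2) summed to 225 and 334 TPM in WT, 234 and 219 in SmnΔ/Δ, 16.7 and 41.6 in U12Δ/Δ, and 44.4 and 75.4 in U6atacΔ/Δ. Without eIF4E3 the sums were 157 and 257 in WT, 52.2 and 70.2 in SmnΔ/Δ, 15.3 and 38.1 in U12Δ/Δ, and 41.6 and 74.8 in U6atacΔ/Δ. The grouping was made after the values were seen and is a description.

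eIF4H2, a copy of the eIF4A cofactor eIF4H, had 10.2 and 16.6 TPM in WT, 4.29 and 8.31 in SmnΔ/Δ, 0.411 and 1.82 in U12Δ/Δ, and 1.18 and 1.72 in U6atacΔ/Δ. All 6 deletion libraries lay below WT, at log2 fold changes of −1.0, −2.82 and −2.53 (limma adjusted p = 0.594, 0.413 and 0.384). eIF4H1 had 196 and 86.2 TPM in WT and 155 and 56.9 in SmnΔ/Δ, which overlap, and 32.9 to 64.5 in the 4 snRNA deletion libraries. eIF3d2, eIF3f2 and eIF3g2 had 1.78 to 5.27 TPM in WT and 0.0580 to 2.82 in the deletion libraries, and each lay below both WT libraries in all 6. These genes are near the floor and passed the filter of 1 TPM only through WT, which favoured a place below WT in advance. Of their partners, eIF3d1 lay below both WT libraries in SmnΔ/Δ and U6atacΔ/Δ and overlapped WT in U12Δ/Δ. eIF3f1 lay above WT in SmnΔ/Δ and below it in U6atacΔ/Δ, and eIF3g1 lay above WT in SmnΔ/Δ and U6atacΔ/Δ, with overlap for both in U12Δ/Δ.

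eIF4G2, a copy of the eIF4G scaffold, had 45.1 and 70.4 TPM in WT, 32.7 and 51.3 in SmnΔ/Δ, 11.1 and 23.0 in U12Δ/Δ, and 30.6 and 66.6 in U6atacΔ/Δ, where it overlapped WT. It shares its strand with CG33111, so its level is uncertain. eIF4G1 had 89.4 and 429.7 TPM in WT and 69.4 to 131 in the deletion libraries, with overlap in each strain. Because eIF4E3 and eIF4G2 act in spermatogenesis, 8 spermatocyte markers were set beside these genes. They summed to 80.7 to 235 TPM in WT, 43.5 to 104 in SmnΔ/Δ, 31.6 to 161 in U12Δ/Δ and 19.3 to 22.2 in U6atacΔ/Δ, and none was at 0 in all libraries. Of the 8 markers, 3 lay below both WT libraries in SmnΔ/Δ, 3 in U12Δ/Δ and 4 in U6atacΔ/Δ, beside 25.6, 31.2 and 33% of all genes tested, and none lay above. Their part in the levels of the paralogues was not tested.

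**Figure D4:**
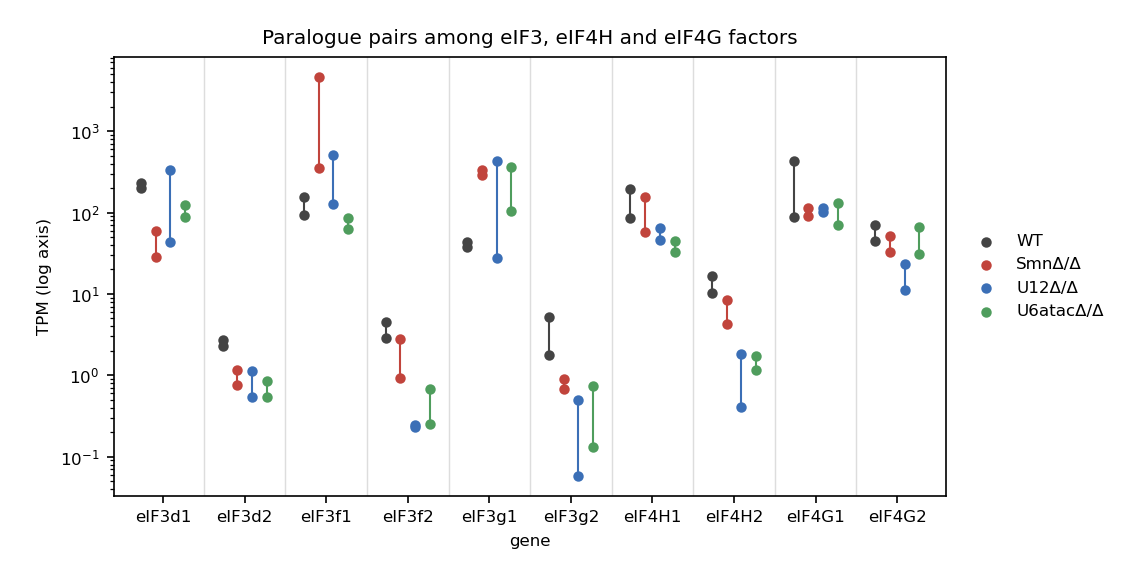
TPM on a log axis for 5 pairs of paralogues of eIF3 subunits, eIF4H and eIF4G, with 1 point per library and a line joining the 2 libraries of a strain. eIF3d2, eIF3f2, eIF3g2 and eIF4H2 lie below WT in all 6 deletion libraries, while eIF3f1 and eIF3g1 lie above WT in SmnΔ/Δ. eIF3d2, eIF3f2 and eIF3g2 passed the filter on mean TPM only through WT.

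The helicase eIF4A had 721 and 390.5 TPM in WT, 7759 and 4657 in SmnΔ/Δ, 2014 and 724 in U12Δ/Δ, and 109 and 484 in U6atacΔ/Δ. Both SmnΔ/Δ libraries were above all 6 others, at 11.2 times the WT mean, and the lower U12Δ/Δ library was level with the higher WT library. The log2 fold change was 3.50 ± 1.19 in SmnΔ/Δ (limma adjusted p = 0.242), 1.18 ± 1.19 in U12Δ/Δ and −1.20 ± 1.19 in U6atacΔ/Δ. A copy of the blood transposon lies within the eIF4A gene on the same strand. eIF4B, which stimulates eIF4A, had 2.39 and 0.667 TPM in WT, 3.72 and 12.5 in SmnΔ/Δ, and 0.523 to 2.97 in the snRNA deletion strains (log2 fold change 1.75 ± 0.78 in SmnΔ/Δ, limma adjusted p = 0.365). It overlaps lncRNA:CR46482 on the same strand, so its level is uncertain.

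The eIF3 complex is built from subunits that act as 1 unit, but their RNA levels differed within each library. Over the 13 eIF3 genes outside the paralogues, the highest TPM was 36.8 and 8.26 times the lowest in WT, 152 and 14.6 times in SmnΔ/Δ, 9.51 and 19.1 times in U12Δ/Δ, and 8.29 and 20.1 times in U6atacΔ/Δ. Different subunits were highest in different libraries. The median of the 13 genes was 81.3 to 178 TPM in the 8 libraries.

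eIF3a, the largest scaffold subunit, had 71.5 and 85.3 TPM in WT, 107 and 330.5 in SmnΔ/Δ, 298 and 507 in U12Δ/Δ, and 208 and 519 in U6atacΔ/Δ. All 6 deletion libraries lay above both WT libraries, at log2 fold changes of 1.26, 2.30 and 2.06 (limma adjusted p = 0.663, 0.557 and 0.563). eIF3b, the other scaffold subunit, had 614 and 240.2 TPM in WT, 112 and 209.9 in SmnΔ/Δ, 106 and 155 in U12Δ/Δ, and 44.7 and 239 in U6atacΔ/Δ. It lay below WT in all 6, at −1.32, −1.58 and −1.88 (limma adjusted p = 0.670, 0.694 and 0.619), although its highest deletion library was level with the lower WT library.

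eIF3h, a regulatory subunit, had 33.5 and 67.6 TPM in WT, 300.2 and 409 in SmnΔ/Δ, 489 and 319 in U12Δ/Δ, and 75.8 and 25.8 in U6atacΔ/Δ. Its log2 fold change was 2.85 ± 1.12 in SmnΔ/Δ (limma adjusted p = 0.304), 3.03 ± 1.12 in U12Δ/Δ (adjusted p = 0.483) and −0.10 ± 1.12 in U6atacΔ/Δ, where the libraries overlapped WT. eIF3f1 had 153 and 92.2 TPM in WT, 4639 and 350.2 in SmnΔ/Δ, 127 and 509 in U12Δ/Δ, and 85.7 and 62.0 in U6atacΔ/Δ. The 4639 TPM of SmnΔ/Δ replicate 1 stood apart, and without that library the log2 fold change in SmnΔ/Δ went from 3.41 to 1.55.

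eIF3g1 had 42.9 and 37.7 TPM in WT, 289 and 330.3 in SmnΔ/Δ, 427 and 27.9 in U12Δ/Δ, and 104 and 363 in U6atacΔ/Δ, so that 1 U12Δ/Δ library lay on each side of WT. Its log2 fold change was 2.91 ± 1.43 in SmnΔ/Δ (limma adjusted p = 0.403) and 2.24 ± 1.43 in U6atacΔ/Δ (adjusted p = 0.607). eIF3e had 16.7 and 166 TPM in WT, 211 and 30.1 in SmnΔ/Δ, 194 and 69.5 in U12Δ/Δ, and 239.7 and 257 in U6atacΔ/Δ, and lay above WT in U6atacΔ/Δ alone. The other core subunits (eIF3c, eIF3d1, eIF3i, eIF3j, eIF3k, eIF3l and eIF3m) had log2 fold changes of −2.37 to 1.73 against WT, all with an unadjusted p above 0.05.

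Of the start codon factors, eIF1 (3L, 3223341 to 3224650, plus strand) had 830.0 and 238 TPM in WT, 11.4 and 35.2 in SmnΔ/Δ, 36.4 and 145 in U12Δ/Δ, and 135 and 13.2 in U6atacΔ/Δ. All 6 deletion libraries lay below both WT libraries. The log2 fold changes were −4.39 ± 1.45 in SmnΔ/Δ (limma adjusted p = 0.226), −2.59 ± 1.45 in U12Δ/Δ (adjusted p = 0.584) and −3.34 ± 1.45 in U6atacΔ/Δ (adjusted p = 0.470). After centring on the 10 neighbouring genes of the table, eIF1 in SmnΔ/Δ reached −5.44 (limma adjusted p = 0.0170) and eIF4E4 −3.24 (adjusted p = 0.0215), the 2 members then called, and 384 of 11122 genes were called.

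eIF1A, which binds the ribosome with eIF1, had 371 and 130.2 TPM in WT, 45.4 and 122 in SmnΔ/Δ, 50.95 and 164 in U12Δ/Δ, and 117 and 85.4 in U6atacΔ/Δ, with log2 fold changes of −1.55, −1.25 and −1.13. eIF5, the GTPase-activating protein of eIF2, was listed at 0.728 to 4.79 TPM in the 8 libraries, and it overlaps CG46312 on the same strand. eIF5B, the GTPase that joins the ribosomal subunits, had 22.9 and 69.5 TPM in WT, 47.2 and 42.9 in SmnΔ/Δ, 404 and 109 in U12Δ/Δ, and 7.84 and 39.2 in U6atacΔ/Δ, and lay above WT in U12Δ/Δ (2.36 ± 1.24, limma adjusted p = 0.567). eIF6, which keeps the large subunit from joining too early, had 48.2 and 23.5 TPM in WT, 43.8 and 35.4 in SmnΔ/Δ, 3.08 and 2.15 in U12Δ/Δ, and 8.75 and 46.3 in U6atacΔ/Δ. The U12Δ/Δ libraries were the lowest, at −3.28 ± 1.06 (limma adjusted p = 0.457), but eIF6 shares its strand with ytr. eIF2A, an alternative carrier of initiator tRNA, had 1771 and 85.6 TPM in WT and 43.2 to 830.4 TPM in the deletion libraries, and overlapped WT in each strain.

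eIF2 has 3 subunits. eIF2alpha, the subunit whose phosphorylation slows initiation under stress, had 194 and 87.5 TPM in WT, 67.1 and 24.8 in SmnΔ/Δ, 48.2 and 78.6 in U12Δ/Δ, and 30.5 and 50.3 in U6atacΔ/Δ. All 6 deletion libraries were below WT, at −1.65, −1.07 and −1.71 (limma adjusted p = 0.533, 0.773 and 0.610). eIF2beta had 272 and 301 TPM in WT, 111 and 69.9 in SmnΔ/Δ, 131 and 204 in U12Δ/Δ, and 199 and 465 in U6atacΔ/Δ. It lay below both WT libraries in SmnΔ/Δ and U12Δ/Δ and overlapped WT in U6atacΔ/Δ. eIF2gamma, which binds GTP and the tRNA and shares its strand with Su(var)3-9, overlapped WT in each strain. In U12Δ/Δ the log2 fold changes of eIF2alpha, eIF2beta and eIF2gamma were −1.07, −0.80 and −1.20.

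The catalytic subunit of eIF2B, eIF2Bepsilon, had 5.29 and 13.0 TPM in WT, 24.2 and 15.9 in SmnΔ/Δ, 14.4 and 25.8 in U12Δ/Δ, and 31.0 and 20.6 in U6atacΔ/Δ. It lay above WT in all 6 deletion libraries, by 1.14, 1.11 and 1.48 on the log2 scale (limma adjusted p = 0.635, 0.724 and 0.611). It overlaps mip130 on the opposite strand, so its level is uncertain. Of the other 4 subunits, eIF2Balpha lay above WT in U6atacΔ/Δ (18.7 and 14.2 TPM, beside 2.69 and 8.70 in WT) and no other comparison with WT was free of overlap. eIF2Bdelta had 537 TPM in WT replicate 1 and 6.70 to 84.0 TPM in all other libraries.

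Among elongation factors, eEF1alpha1, which carries aminoacyl-tRNA to the ribosome, had 8617 and 13231 TPM in WT, 1468 and 45613 in SmnΔ/Δ, 11310.0 and 5497 in U12Δ/Δ, and 22780.5 and 5637 in U6atacΔ/Δ. Both the lowest and the highest value came from SmnΔ/Δ, and every strain overlapped WT (log2 fold changes −0.38, −0.44 and 0.09, SE 1.53). Its copy eEF1alpha2 had 75.6 and 36.5 TPM in WT and 6.51 to 28.1 in the deletion libraries, all below WT, at −1.69, −1.72 and −1.86 (limma adjusted p = 0.531, 0.628 and 0.591). It made up 0.870 and 0.275% of the summed eEF1alpha TPM in WT and 0.0186 to 1.88% in the deletion libraries.

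eEF1gamma, a subunit of the exchange factor of eEF1alpha, had 1383 and 1329 TPM in WT and 339 to 1194 in the deletion libraries. It lay below WT in all 6, at −1.65, −0.90 and −1.03 (limma adjusted p = 0.538, 0.816 and 0.788). Another exchange subunit, eEF1beta, had 373 and 275 TPM in WT, 162 and 132 in SmnΔ/Δ, 207 and 1021 in U12Δ/Δ, and 694 and 328 in U6atacΔ/Δ, below WT in SmnΔ/Δ alone. eEF2, the translocase, had 1569 and 3030.2 TPM in WT, 883 and 1299 in SmnΔ/Δ, 1945 and 1029 in U12Δ/Δ, and 6078 and 3694 in U6atacΔ/Δ. It was below WT in SmnΔ/Δ (−1.03 ± 1.02, limma adjusted p = 0.691) and above WT in U6atacΔ/Δ (1.12 ± 1.02, adjusted p = 0.735). eEF5, the fly eIF5A that relieves stalled ribosomes, ranged from 48.7 TPM in SmnΔ/Δ replicate 2 to 7224 in U12Δ/Δ replicate 2, and each strain overlapped WT.

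**Figure D5:**
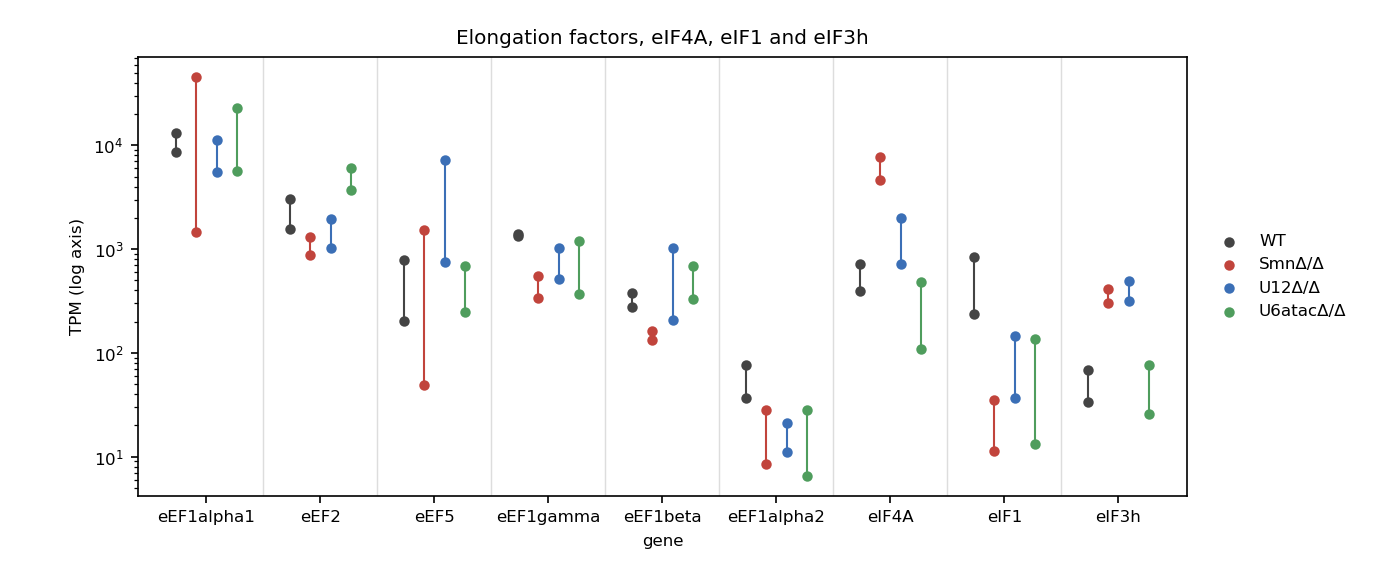
TPM on a log axis for 6 elongation factors, eIF4A, eIF1 and eIF3h, with 1 point per library and a line joining the 2 libraries of a strain. eIF4A lies at 7759 and 4657 TPM in SmnΔ/Δ and eIF1 lies below WT in all 6 deletion libraries, while eEF1alpha1 spans 1468 to 45613 TPM within SmnΔ/Δ.

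By role, the 12 tested cap-binding factors and partners had medians of −0.97, −2.12 and −1.47 in SmnΔ/Δ, U12Δ/Δ and U6atacΔ/Δ, and 4, 6 and 5 of them had an unadjusted p under 0.05, beside 13.9, 9.44 and 10.3% of all genes tested. The 16 eIF3 genes had medians of −0.46, 0.13 and −0.43, and the 8 elongation factors had −1.07, −0.60 and 0.07, with none at an unadjusted p under 0.05. The 6 start codon and subunit joining factors had medians of 0.02, −1.14 and −0.97, the 4 genes of the ternary complex group (with eIF2D) −0.82, −0.94 and 0.04, and the 5 eIF2B subunits 0.10, −0.53 and 0.38. All 12 cap-binding factors and partners and all 6 start codon and subunit joining factors lay below 0 in U6atacΔ/Δ, where the median of all genes was −0.49. The first group also holds the eIF4A, eIF4B, eIF4G and eIF4H genes, and the second also eIF2A, eIF5B and eIF6. No role was tested against another.

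Regulators of initiation were read in the same way. None of 19 tested regulators had an adjusted p under 0.05 against WT. In SmnΔ/Δ, 2 of them, crc (the fly ATF4) and larp, had an unadjusted p under 0.05, beside 13.9% of all genes tested. None did in U12Δ/Δ (9.44% of all genes) or U6atacΔ/Δ (10.3%). The median log2 fold change of the 19 regulators was 0.32 in SmnΔ/Δ, −0.21 in U12Δ/Δ and −0.44 in U6atacΔ/Δ, beside −0.18, −0.53 and −0.49 for all genes tested. Thor, the 4E-BP that competes with eIF4G for eIF4E, had 340 and 167 TPM in WT and 118 to 538 in the deletion libraries, and overlapped WT in each strain. The eIF2alpha kinases PEK and Gcn2 had 9.97 and 22.2 TPM and 15.1 and 30.1 TPM in WT, and 8.12 to 77.8 and 3.27 to 21.6 TPM in the deletion libraries. The poly(A) tail binding protein pAbp had 538 and 14743 TPM in WT, 1059 and 11716 in SmnΔ/Δ, and 441 to 765 in the snRNA deletion libraries, so that replicate 2 of WT and of SmnΔ/Δ stood apart from the other 6 libraries.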

How the data were processed

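RNA was measured by paired-end mRNA sequencing of whole L3 larvae, 4 strains with 2 libraries each. The deposited tables give TPM per gene and library, computed by the authors and scaled to 1e+06 per library, with the gene length and dm6 position. The submitters' processing notes name TopHat2, featureCounts and dm6, and how the TPM were computed is not given in the sources used here. TPM keep no read numbers, so depth is unknown and no counting interval is given. The library kit is not described as strand-specific.

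Groups were taken from the genotype labels. Genes with a mean of at least 1 TPM over the 8 libraries were tested with limma 3.58.1 in R 4.3.3 on log2(TPM + 1), in 1 fit of the 4 group means with a trended variance prior, two-sided, with Benjamini-Hochberg adjustment and a threshold of 0.05. The code was tested on simulated data. Alternatives were another pseudocount, other filters, median-ratio and quantile scaling, a fit of the 4 libraries compared, a replicate block, no variance trend, centring on the 10 neighbouring genes, and leaving out each library. Genes were named by rule: core factors of each role, the 3 highest and 3 lowest log2 fold changes per comparison with WT without overlap of libraries, every call at the threshold, paralogue families, and Thor, PEK, Gcn2 and pAbp. Values of other members were added as descriptions after they were seen. The members and lists were chosen with earlier results of these data known. Sequences and promoter motifs were not analysed here.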

Additional observations from a re-analysis of the deposited data

How the results depend on the processing

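The call counts and medians were recomputed under each alternative, and 140 of the values obtained kept their size and call while 25 moved. In addition, no log2 fold change of a gene named by size or call turned its sign. With the replicate block no member was called in SmnΔ/Δ, U12Δ/Δ or U6atacΔ/Δ against WT (smallest limma adjusted p 0.140, 0.453 and 0.391) and eIF4E3 stayed called against SmnΔ/Δ (adjusted p = 0.0376 and 0.0274), so the block changed no call. Over all genes tested, deviations of same-numbered libraries from their group means were little correlated between strains (r from −0.02 to 0.11). Whether same-numbered libraries share a batch in some genes was not tested. The count of members called for SmnΔ/Δ against WT went from 0 to 2 with neighbour centring. The count against SmnΔ/Δ went from 1 to 0 for U12Δ/Δ and U6atacΔ/Δ with the 4 libraries compared, and over the libraries left out it was 0 each time for U12Δ/Δ and ranged from 0 to 1 for U6atacΔ/Δ.

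The median log2 fold change of the members moved with scaling, as that of all genes did. For U12Δ/Δ against WT it was −0.13 with median-ratio scaling, −0.52 with quantile normalization and −0.094 with neighbour centring. For U6atacΔ/Δ against WT it was −0.16, −0.42 and −0.15, and from −0.99 to −0.60 over the libraries left out. Against SmnΔ/Δ it was 0.44 (median-ratio) and 0.33 (quantile) for U12Δ/Δ, whose unscaled value of −0.05 thus changed sign, and 0.58 (median-ratio) and 0.37 (neighbour centring) for U6atacΔ/Δ. The number of members at an unadjusted p under 0.05 was 3 without SmnΔ/Δ replicate 1 (of 7 in SmnΔ/Δ), 6 without WT replicate 1 (of 10 in U12Δ/Δ), and 5 without WT replicate 1, 5 without U6atacΔ/Δ replicate 1 and 3 without U6atacΔ/Δ replicate 2 (of 8 in U6atacΔ/Δ). The cause was not tested.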

Other observations

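Among 5 termination, recycling and rescue factors, none had an adjusted p under 0.05 against WT (limma). Without adjustment, 1 passed 0.05 in SmnΔ/Δ (eRF1, beside 13.9% of all genes tested) and 1 in U12Δ/Δ (HBS1, beside 9.44%). None passed in U6atacΔ/Δ (10.3%). eRF1, the release factor that reads stop codons, had 18.9 and 62.1 TPM in WT, 355 and 245 in SmnΔ/Δ, 43.0 and 17.9 in U12Δ/Δ, and 172 and 133 in U6atacΔ/Δ. It lay above WT in SmnΔ/Δ (log2 fold change 3.06, limma adjusted p = 0.274) and in U6atacΔ/Δ, and overlapped WT in U12Δ/Δ. Both genes were picked after their values were seen. Of 8 mitochondrial translation factors none was called, with none at an unadjusted p under 0.05, and their medians against WT were −0.33, −0.39 and −0.68 in SmnΔ/Δ, U12Δ/Δ and U6atacΔ/Δ, beside −0.18, −0.53 and −0.49 for all genes.

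S6k, the kinase of ribosomal protein S6, had 6.35 and 1092 TPM in WT and 25.7 and 1202 in SmnΔ/Δ, beside 27.3 to 76.9 TPM in the 4 snRNA deletion libraries. Like pAbp, it was high in replicate 2 of WT and of SmnΔ/Δ.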
